A study of Mus musculus with 9 samples.

Results

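The genes described here are 10 that an intestinal epithelial cell uses to take up calcium and iron: *S100g*, *Trpv6*, *Vdr*, *Cyp24a1*, *Atp2b1*, *Slc11a2*, *Slc40a1*, *Cybrd1*, *Tfrc* and *Fth1*. They are 10 of the 54838 genes listed in the RNA-seq tables. The set was chosen by the FPKM of *S100g*, which was higher with necrostatin-1 (Nec-1) in both arms of the experiment, so every comparison of Nec-1 with its solvent is given below as a description, without a test.

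The libraries came from organoids, small epithelial cultures grown from small intestinal crypts of C57BL/6 mice that carried *Vil-CreERT2* and *Mettl3* fl/fl. The mice were 2 to 4 months old. All libraries share these alleles: a Cre recombinase that 4-hydroxytamoxifen (4-OHT) switches on, driven by the villin promoter in the intestinal epithelium, and a floxed *Mettl3*, which encodes the catalytic subunit of the m6A RNA methyltransferase. Ethanol (EtOH) or 500 nM 4-OHT was given for 2 days, and DMSO or Nec-1, an inhibitor of the kinase RIPK1, for 5 days. The study's text gives 5 µM Nec-1 in one place and 10 µM in another. There were 2 libraries for each group with the exception of 4-OHT Nec-1, which had 1. No group without Cre received 4-OHT in these libraries, so an effect of 4-OHT or of Cre itself and an effect of the floxed gene cannot be told apart.

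Calcium enters the enterocyte through the apical channel TRPV6, crosses the cytoplasm bound to calbindin-D9k (the product of *S100g*) and leaves through the basolateral pump PMCA1 (*Atp2b1*). The vitamin D receptor (*Vdr*) drives this route and also drives *Cyp24a1*, whose product degrades the active hormone. Dietary ferric iron is reduced by duodenal cytochrome b (*Cybrd1*), imported by DMT1 (*Slc11a2*), stored in ferritin (*Fth1* encodes its heavy chain) or exported by ferroportin (*Slc40a1*), while transferrin receptor 1 (*Tfrc*) brings in iron from the blood side.

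The 7 libraries were similar in overall scale. Their FPKM values summed to between 450207 and 498712, and 11559 to 12038 genes reached 1 FPKM. FPKM counts fragments relative to the length of the transcript and the depth of the library, so that levels of different genes can be set side by side. *Mettl3* was listed at 2.70 and 2.71 FPKM in EtOH organoids with DMSO and 2.41 and 2.47 with Nec-1, and 3.72 and 4.14 in 4-OHT organoids with DMSO and 3.36 with Nec-1. The targeted gene was therefore not lower in the libraries labelled 4-OHT, and a level summed over the whole gene does not show whether an exon is missing. All directions below follow the labels.

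Of the 10 genes, 8 were above 1 FPKM in all 7 libraries, and these same 8 passed the filter of at least 1 FPKM in at least 2 libraries that 12702 genes passed. *Trpv6* and *Cyp24a1* were listed at 0 in every library. In EtOH DMSO, the levels ran from *Fth1*, with a mean of 1219 FPKM, through *S100g* (73.3), *Slc11a2* (47.7), *Vdr* (33.2), *Tfrc* (29.0), *Cybrd1* (16.4) and *Atp2b1* (12.6) to *Slc40a1* (9.03 FPKM). No neighbours in that order overlapped between their 2 libraries. In 4-OHT DMSO, *Slc11a2* moved from rank 3 to rank 6, and its libraries there overlapped those of *Cybrd1*. In EtOH Nec-1, *Vdr* overlapped *Tfrc* and *Cybrd1* overlapped *Slc40a1*. *Fth1* and *S100g* held the highest mean levels of the 10 in each of the 4 groups.

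**Figure D1:**
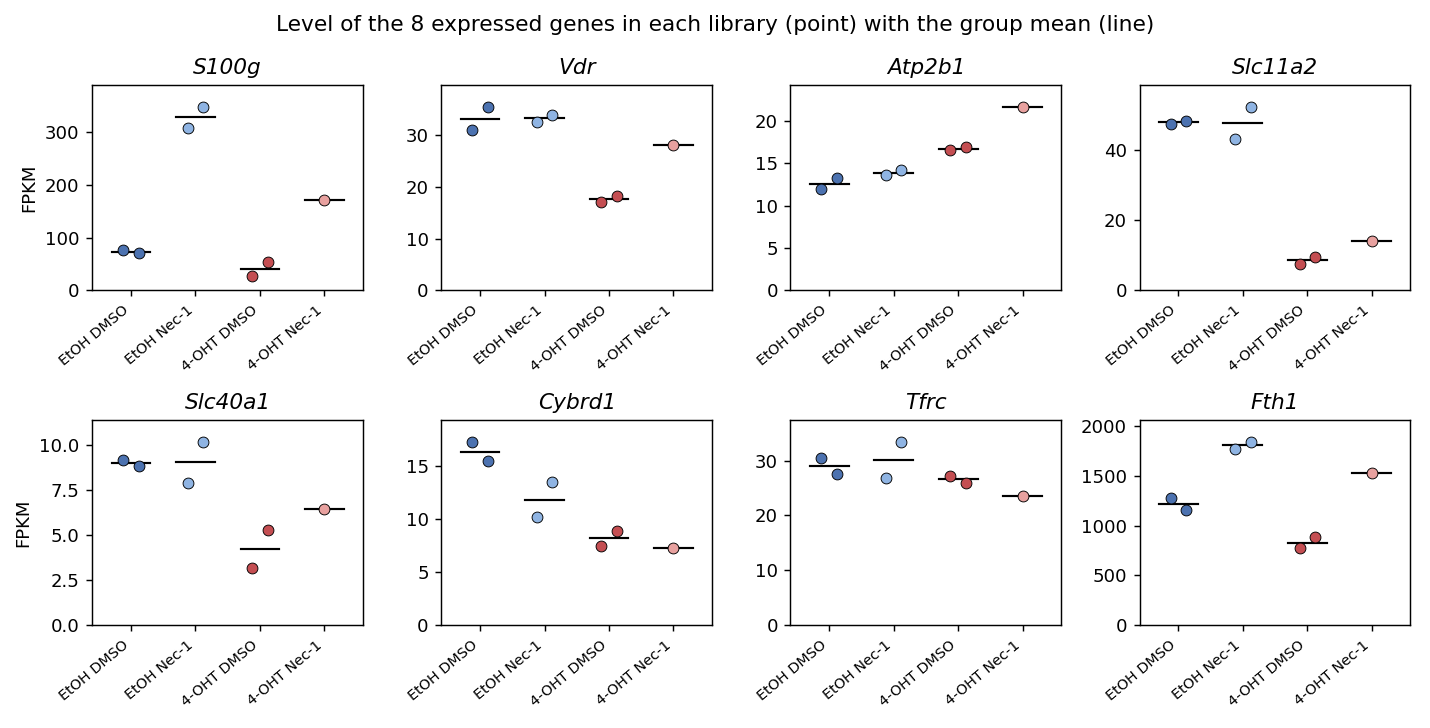
FPKM (vertical axis, from 0, a separate scale for each gene) of the 8 genes listed above 0 in the 4 groups; each point is 1 library and each line a group mean. *S100g* stands at 308 and 348 FPKM in EtOH Nec-1 against 75.9 and 70.7 in EtOH DMSO, and *Slc11a2* stands below 14 FPKM in all 3 4-OHT libraries.

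*S100g* (chrX:162961992-162964599 on GRCm38.p6) was the calcium gene with the widest range. Its level was 75.9 and 70.7 FPKM in EtOH organoids with DMSO and 308 and 348 with Nec-1, and 27.8 and 53.5 in 4-OHT organoids with DMSO and 172 with Nec-1. Each Nec-1 library was above every DMSO library, and in proportion the 2 libraries of 4-OHT DMSO were farther apart than those of the other groups. The mean FPKM with Nec-1 was 4.47 times that with DMSO in EtOH organoids and 4.22 times in 4-OHT organoids. On the log2(FPKM + 1) scale, the differences were 2.14 in EtOH organoids, with 2.01 to 2.28 over the pairings of single libraries, and 2.12 in 4-OHT organoids, with 1.66 and 2.58 against each of the 2 DMSO libraries. These are the values that put *S100g* in the set. A rise of 1 log2 unit or more with Nec-1, in every pairing of single libraries, was seen for 0.346% of all genes tested in EtOH organoids and for 0.756% in 4-OHT organoids, and *S100g* was the 1 gene of the 10 that reached this size in either arm. The members closest to that size were *Fth1* in the EtOH arm (0.57) and again *Fth1* in the 4-OHT arm (0.88).

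*Trpv6*, the entry channel that works ahead of calbindin-D9k, was listed at 0 in all 7 libraries, with or without Nec-1. Its close relative *Trpv5*, the renal calcium channel, was also listed at 0 in every library. *Cyp24a1*, a standard readout of vitamin D receptor activity, was listed at 0 throughout as well, and *Cyp27b1*, whose product makes the active hormone, did not exceed 0.138 FPKM. These levels held in the libraries with the highest *S100g* levels too. Receptor activity was not measured, and its part in the level of *S100g* was not tested.

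The stretches upstream of *S100g* and *Trpv6* are shown because both genes belong to the vitamin D-driven calcium route and the tables list one at a high level and the other at 0. Both come from RefSeq on build GRCm38.p6, cover the 250 bases before the annotated start, and are written 5′ to 3′ on the strand of the gene. Capitals mark the hexamer AGGTCA, the half-site that the vitamin D receptor and many other nuclear receptors recognise, on either strand (TGACCT is its reverse complement).
*S100g* (chrX:162964600-162964849, minus strand): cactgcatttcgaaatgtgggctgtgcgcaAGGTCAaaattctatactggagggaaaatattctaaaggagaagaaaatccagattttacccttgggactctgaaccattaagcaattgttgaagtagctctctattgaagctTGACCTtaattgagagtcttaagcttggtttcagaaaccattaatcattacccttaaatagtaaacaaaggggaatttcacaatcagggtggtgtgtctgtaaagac
*Trpv6* (chr6:41636406-41636655, minus strand): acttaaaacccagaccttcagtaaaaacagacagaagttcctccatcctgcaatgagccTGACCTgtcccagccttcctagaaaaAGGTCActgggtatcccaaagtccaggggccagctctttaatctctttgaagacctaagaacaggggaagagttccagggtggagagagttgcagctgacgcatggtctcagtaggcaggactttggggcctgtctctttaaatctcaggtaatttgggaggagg

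Each of these windows holds 2 matches to AGGTCA, 1 on each strand. In *S100g* they begin 220 and 107 bases before the start, and in *Trpv6* 191 and 165 bases before it. Among all 32851 promoter windows of this length, 14.0% hold at least 1 match and 1.36% hold at least 2. Windows were found for 7 of the 10 genes, and those of *Vdr*, *Atp2b1*, *Cybrd1*, *Tfrc* and *Fth1* hold no AGGTCA. A direct repeat of AGGTCA with 3 bases between the copies, searched on both strands, is in none of the windows of the 7 genes. It is in 2 of all windows, so its absence here says little. Inexact copies and sequence outside the windows were not searched. A further search, for GCGTG on both strands, found the letters in *Vdr*, *Cybrd1*, *Fth1* and *Tfrc* and in 28.2% of all windows, and not in *S100g*, *Trpv6* or *Atp2b1*. A match of this kind describes the letters in the window and is not evidence of binding. *Cyp24a1*, *Slc11a2* and *Slc40a1* had no entry.

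*Vdr* was at 31.0 and 35.5 FPKM in EtOH organoids with DMSO and 32.6 and 34.0 with Nec-1, and 17.2 and 18.2 in 4-OHT organoids with DMSO and 28.2 with Nec-1. The 4-OHT DMSO libraries were below all others, and the EtOH libraries overlapped whether or not Nec-1 was present. Between 4-OHT DMSO and EtOH DMSO the receptor transcript fell by 0.87 on the log2(FPKM + 1) scale (SE 0.095, limma with Benjamini-Hochberg adjusted p = 0.00215). With Nec-1, the single 4-OHT library was 0.64 log2 units above the 4-OHT DMSO mean, while in EtOH organoids the difference was 0.0056.

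*Atp2b1*, the export pump, was the 1 member higher in 4-OHT organoids. Its level was 12.0 and 13.2 FPKM in EtOH organoids with DMSO and 13.6 and 14.2 with Nec-1, and 16.6 and 16.9 in 4-OHT organoids with DMSO and 21.7 with Nec-1. The 2 DMSO groups did not overlap, and the highest level was in the 4-OHT Nec-1 library. The rise between 4-OHT DMSO and EtOH DMSO was 0.39 log2 units (SE 0.085, limma adjusted p = 0.0180). Once the libraries were centred on their median gene the rise was 0.23, with a limma adjusted p of 0.0562, and without 4-OHT DMSO library 2 the limma adjusted p was 0.0534.

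Among the iron genes, *Slc11a2* (chr15:100387898-100424209) showed the widest gap between EtOH and 4-OHT organoids. The DMT1 transcript stood at 47.4 and 48.1 FPKM in EtOH organoids with DMSO and 42.9 and 52.1 with Nec-1, and 7.57 and 9.44 in 4-OHT organoids with DMSO and 13.9 with Nec-1. The 3 4-OHT libraries were all far below the 4 EtOH libraries, with no overlap. The mean FPKM in EtOH DMSO was 5.61 times that in 4-OHT DMSO, and the log2 difference was -2.36 (SE 0.14, limma adjusted p = 0.000476). Over all genes tested, 2.17% were lower by at least 1 log2 unit in every pairing under DMSO, as *Slc11a2* was. Under Nec-1, where 1 library stands for 4-OHT and no test was made, the difference was -1.69, with a mean FPKM in EtOH 3.41 times that in 4-OHT. The 4-OHT Nec-1 library was 0.66 log2 units above the 4-OHT DMSO mean, and in EtOH organoids the difference with Nec-1 was -0.013.

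The ferric reductase *Cybrd1* and the exporter *Slc40a1* also fell with 4-OHT. *Cybrd1* was at 17.3 and 15.5 FPKM in EtOH organoids with DMSO and 10.2 and 13.5 with Nec-1, and 7.44 and 8.92 in 4-OHT organoids with DMSO and 7.32 with Nec-1. Its log2 change between 4-OHT DMSO and EtOH DMSO was -0.92 (SE 0.16, limma adjusted p = 0.00842). It was the 1 member whose Nec-1 libraries lay below the DMSO libraries in both arms, by 0.45 log2 units in EtOH and 0.14 in 4-OHT organoids.

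*Slc40a1* was at 9.20 and 8.86 FPKM in EtOH organoids with DMSO and 7.89 and 10.2 with Nec-1, and 3.19 and 5.30 in 4-OHT organoids with DMSO and 6.47 with Nec-1. All 3 4-OHT libraries were below the EtOH libraries. The log2 change was -0.96 (SE 0.22, limma adjusted p = 0.0198). With Nec-1, the 4-OHT library was 0.24 and 0.83 log2 units above the 2 DMSO libraries, and the EtOH groups overlapped. Importer and exporter did not fall by the same factor: *Slc11a2* was 5.11 to 5.43 times the level of *Slc40a1* in the 4 EtOH libraries and 1.78 to 2.37 times in the 3 4-OHT libraries.

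*Tfrc*, which iron-poor cells express at a high level, had the smallest difference between 4-OHT and EtOH of the 8 genes under DMSO, though not under Nec-1. It was at 30.5 and 27.6 FPKM in EtOH organoids with DMSO and 26.9 and 33.4 with Nec-1, and 27.3 and 25.9 in 4-OHT organoids with DMSO and 23.5 with Nec-1. The difference of -0.12 log2 units between 4-OHT DMSO and EtOH DMSO did not pass the test (SE 0.12, limma adjusted p = 0.468), and the 4-OHT Nec-1 library was the lowest of the 7, 0.34 log2 units below the EtOH Nec-1 mean.

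*Fth1* (chr19:9980600-9985111) was the most abundant member. It was at 1278 and 1159.7 FPKM in EtOH organoids with DMSO and 1767 and 1843 with Nec-1, and 775 and 883 in 4-OHT organoids with DMSO and 1526.5 with Nec-1. As with *S100g*, every Nec-1 library was above every DMSO library. The log2 differences with Nec-1 were 0.57 in EtOH and 0.88 in 4-OHT organoids. Between 4-OHT DMSO and EtOH DMSO, *Fth1* fell by 0.56 on the log2(FPKM + 1) scale (SE 0.11, limma adjusted p = 0.0133). The light chain *Ftl1* fell alongside it, by 0.54 (SE 0.11, limma adjusted p = 0.0135). The heavy chain level divided by the light chain level gave 1.06 and 0.845 in EtOH DMSO, 0.922 and 0.953 in 4-OHT DMSO, and between 1.21 and 1.23 in the 3 Nec-1 libraries. The ferritin genes have processed pseudogenes, and reads that could be divided among them make both levels uncertain.

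Counted together, 6 of the 8 genes tested changed between 4-OHT DMSO and EtOH DMSO at a limma adjusted p under 0.05. Over all genes tested the share was 41.2%. *Vdr*, *Slc11a2*, *Slc40a1*, *Cybrd1* and *Fth1* were lower, beside 16.7% of all genes, and *Atp2b1* was higher, beside 24.5%. The median log2 change was -0.89 for the 8 genes and 0.077 for all genes tested. Both sets of DMSO libraries are also the baselines of the Nec-1 comparisons, so the 4-OHT values share libraries with those that chose the set. *S100g* did not pass this test: its log2 difference was -0.91 (SE 0.29, limma adjusted p = 0.0552). Without 4-OHT DMSO library 1, the lower of the pair, its difference was -0.45 with an adjusted p of 0.0338, and without library 2 it was -1.36 with an adjusted p of 0.00202 (limma). The count of called members also rested on EtOH DMSO library 1: without it, *Vdr* and *Slc11a2* were the 2 genes that still passed, and the limma adjusted p was 0.0604 for *Atp2b1*, 0.0910 for *Slc40a1*, 0.0519 for *Cybrd1* and 0.0507 for *Fth1*. *Slc40a1* also missed the threshold without EtOH DMSO library 2. Fewer of all genes were called as well without either of these libraries.

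**Figure D2:**
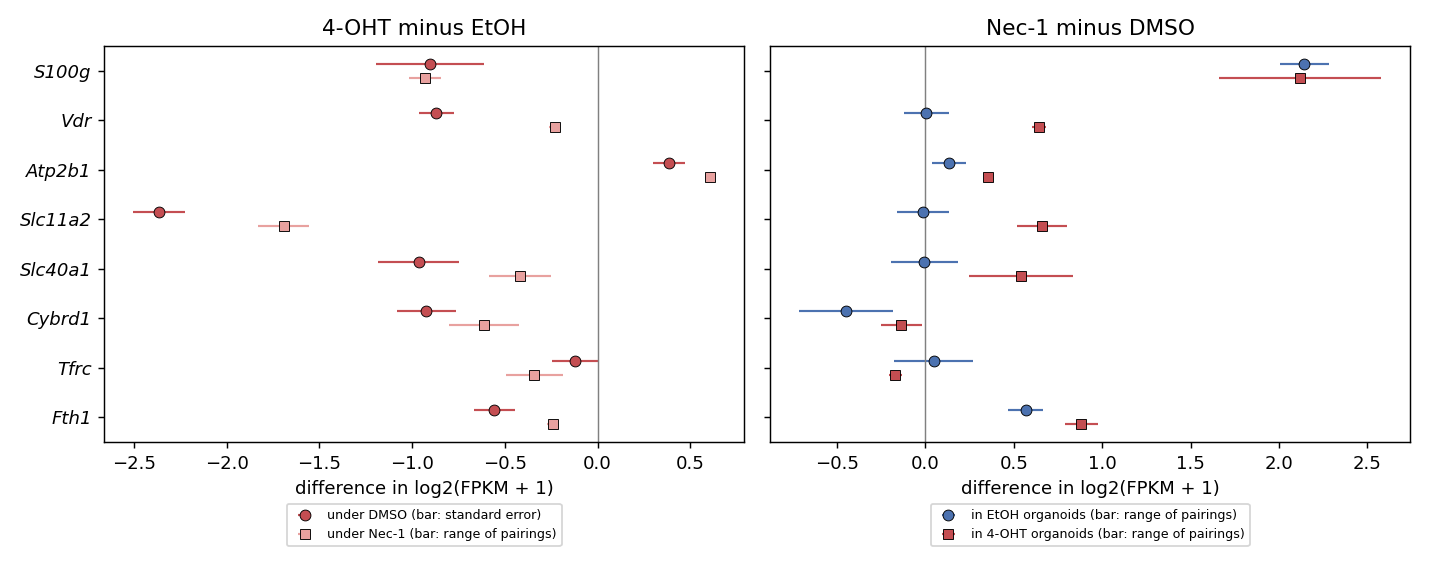
Difference in log2(FPKM + 1) (horizontal axis) of each gene for 4-OHT minus EtOH (left) and Nec-1 minus DMSO (right); bars are the limma standard error for 4-OHT under DMSO and the range over pairings of single libraries elsewhere. *Slc11a2* lies at -2.36 and -1.69 on the left, and *S100g* at 2.14 and 2.12 on the right.

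The same 8 genes can be compared between 4-OHT and EtOH under Nec-1, with a single 4-OHT library and no test. There, 7 of the 8 genes lay below both EtOH Nec-1 libraries, beside 38.0% of all genes, and *Atp2b1* lay above them by 0.61 log2 units, beside 50.4%. *S100g* was 0.93 log2 units lower, beside 0.91 under DMSO. *Vdr* and *Fth1* were 0.23 and 0.24 log2 units lower, where under DMSO they were 0.87 and 0.56 lower. The difference between these differences was not tested.

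With Nec-1 in EtOH organoids, *S100g*, *Atp2b1* and *Fth1* lay above both DMSO libraries without overlap, beside 10.5% of all genes, and *Cybrd1* lay below them, beside 39.1%. The remaining 4 genes overlapped, with differences between -0.013 and 0.046 log2 units. Without EtOH Nec-1 library 1, 6 genes lay above, with *Slc11a2*, *Slc40a1* and *Tfrc* joining the 3. A single library clears both DMSO libraries more easily, and the share of all genes in that setting was not counted. In 4-OHT organoids, 6 genes in the single Nec-1 library lay above both DMSO libraries, beside 25.5% of all genes: *S100g*, *Vdr*, *Atp2b1*, *Slc11a2*, *Slc40a1* and *Fth1*. *Cybrd1* and *Tfrc* lay below them, beside 49.3%. Over all genes, 5.07% lay above in both arms. Because these comparisons chose the set, the shares are given as background and nothing is read from them.

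The genes whose pattern over the 7 libraries was most like that of *S100g*, by Pearson correlation of log2(FPKM + 1), were *Cyb5a* (0.984), *Ncoa4* (0.983), *Cyp3a25* (0.978), *Pgrmc1* (0.976) and *Mettl7b* (0.975). The 7 points share libraries and groups, and the correlations are a description. They include the Nec-1 libraries by which *S100g* was chosen, so genes picked for likeness to it tend to be higher there too. *Ncoa4* encodes the receptor that carries ferritin to the lysosome for iron release. Its level was 7.01 and 7.01 FPKM in EtOH organoids with DMSO and 19.4 and 23.7 with Nec-1, and 2.76 and 7.03 in 4-OHT organoids with DMSO and 11.5 with Nec-1, with 4-OHT DMSO library 1 again the lowest.

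*Cyb5a* and *Pgrmc1* encode heme-binding proteins of the endoplasmic reticulum, and *Cyp3a25* encodes a cytochrome P450. *Cyp3a25* had the widest range of these genes in proportion: 4.57 and 5.05 FPKM in EtOH organoids with DMSO and 68.8 and 67.9 with Nec-1, and 1.32 and 1.29 in 4-OHT organoids with DMSO and 22.6 with Nec-1. Among the members, *Fth1* had rank 11 among all genes tested in likeness, with a correlation of 0.971. The correlations of the other members with *S100g* ran from -0.074 (*Atp2b1*) to 0.71 (*Vdr*).

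**Figure D3:**
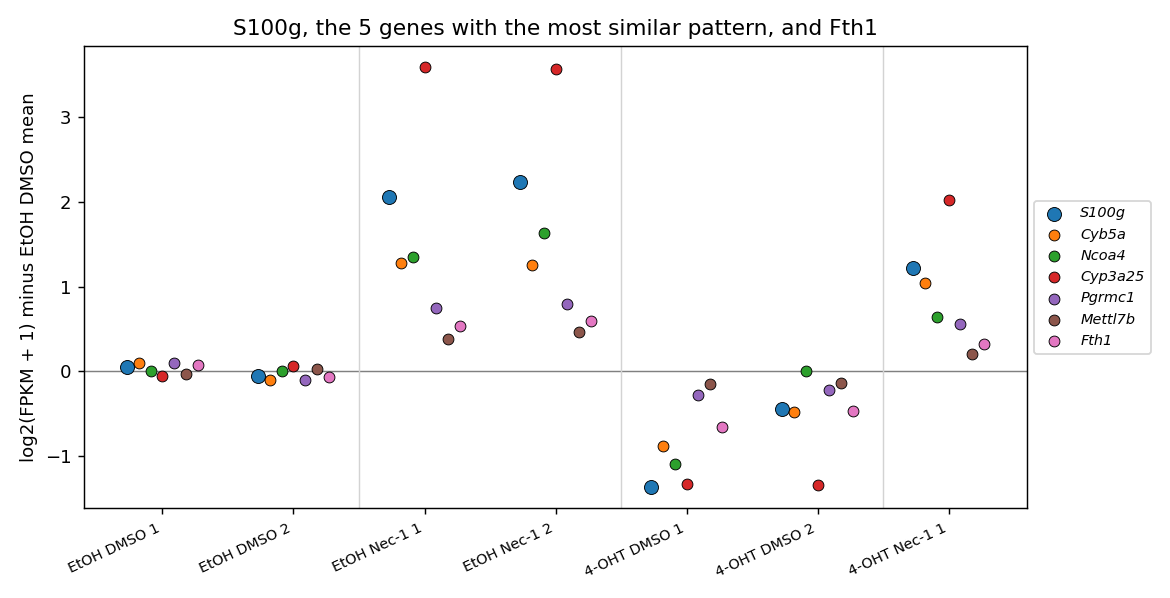
log2(FPKM + 1) in each of the 7 libraries relative to the EtOH DMSO mean (vertical axis) for *S100g*, the 5 genes most like it and *Fth1*; each point is 1 gene in 1 library. All 7 genes lie above 0 in the 3 Nec-1 libraries, which the choice of 5 of them by likeness to *S100g* favours. Their sizes differ, with *Cyp3a25* highest and *Mettl7b* lowest.

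Wider lists of calcium, vitamin D and iron genes were compared in the same way. Over all genes tested, 24.5% were higher and 16.7% lower in 4-OHT DMSO, and the counts of each list below stand beside these shares. Of 23 other genes of intestinal calcium, phosphate and magnesium handling, 15 were tested. The store-operated calcium channel *Orai1* rose by 0.60 log2 units (limma adjusted p = 0.00992) and the paracellular cation channel *Cldn2* by 0.40 (0.0126) in 4-OHT DMSO against EtOH DMSO. *Cldn15*, a paracellular sodium channel, went from 184 and 178 FPKM to 74.4 and 88.2, a fall of 1.15 log2 units (limma adjusted p = 0.00125). The other 12 did not pass, and the median of the list was 0.046.

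Among 8 tested genes of vitamin D metabolism and receptor partners, 2 rose and 2 fell, beside 24.5% and 16.7% of all genes. *Med1*, a coactivator subunit of Mediator, rose by 0.85 log2 units (limma adjusted p = 0.00280) and the protein disulfide isomerase *Pdia3* by 0.62 (0.00336). *Rxrb*, a retinoid X receptor, fell by 0.49 (0.0226) and the corepressor *Ncor1* by 0.48 (0.0212). The median was -0.071.

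Of 6 other intestinal vitamin D targets, *Cldn2* rose and the manganese exporter *Slc30a10* fell, by 0.76 log2 units (limma adjusted p = 0.0348). With Nec-1 in EtOH organoids, 2 of the 6 lay above and 3 below the DMSO libraries without overlap, beside 10.5% and 39.1% of all genes. The list median there was -0.071 log2 units. In 4-OHT organoids 3 lay above and 1 below, beside 25.5% and 49.3% of all genes, with a median of 0.34. The 2 above in EtOH organoids were *Cyp3a11* and *Abcb1a*, both involved in the handling of foreign compounds and named here after their values were seen. *Cyp3a11* was at 1.99 to 2.55 FPKM in the 4 DMSO libraries, 25.9 and 24.7 with Nec-1 in EtOH organoids and 34.8 with Nec-1 in 4-OHT organoids. *Abcb1a* was at 24.2 to 33.1 FPKM in the DMSO libraries, 66.1 and 60.3 with Nec-1 in EtOH organoids and 92.0 with Nec-1 in 4-OHT organoids. Both are also targets of other nuclear receptors. *Cyp3a11* and *Cyp3a25* belong to a family of closely similar genes, so reads may have been divided among its members.

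The longest list, iron and heme uptake, storage, export and mitochondrial iron, had 22 genes tested. With 4-OHT under DMSO, 7 of them rose and 6 fell, beside 24.5% and 16.7% of all genes. The heme oxygenase *Hmox2* rose by 0.59 log2 units (limma adjusted p = 0.00879) and the iron chaperone *Pcbp1* by 0.59 (0.00330). The second chaperone, *Pcbp2*, went the other way and fell by 0.65 (0.00288), and the metal importer *Slc39a14* fell by 1.08 (0.00523). *Heph*, the ferroxidase that works with ferroportin, stood between 10.4 and 12.1 FPKM in all 7 libraries. The median of this list was 0.032.

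Of 11 tested regulators of iron, *Fbxl5*, the iron-sensing ubiquitin ligase subunit, rose by 0.68 log2 units (limma adjusted p = 0.00331). *Epas1*, which encodes HIF-2α, the factor that drives *Slc11a2* and *Cybrd1* in the duodenum, fell by 0.56 (0.0148). It went from 5.39 and 6.50 FPKM in EtOH DMSO to 3.49 and 3.91 in 4-OHT DMSO. Under Nec-1, *Epas1* was at 4.94 and 5.13 FPKM in EtOH organoids and 4.58 in 4-OHT organoids. Whether its transcript level bears on *Slc11a2* or *Cybrd1* was not tested. *Aco1*, the iron-responsive RNA-binding protein, fell by 0.34 (0.0215), and the median of the list was -0.19.

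**Figure D4:**
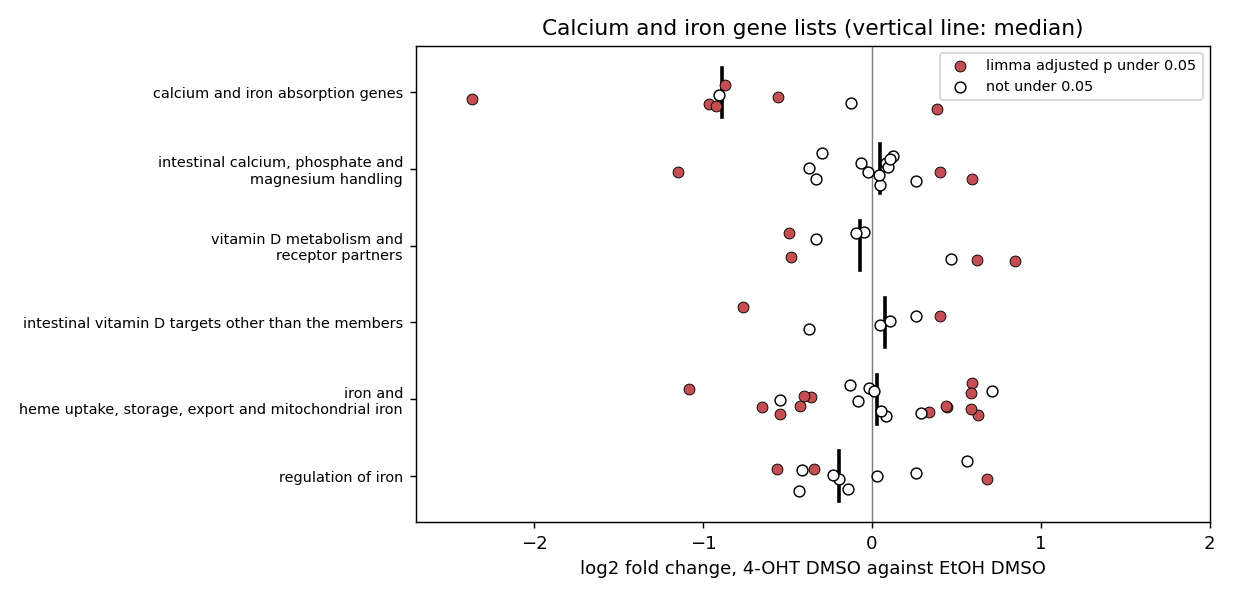
log2 fold change of 4-OHT DMSO against EtOH DMSO (horizontal axis) for the 8 tested calcium and iron absorption genes and the tested genes of 5 wider lists; each point is 1 gene, filled where the limma adjusted p is under 0.05, and vertical lines are medians. The absorption genes have a median of -0.89, and the medians of the other lists lie between -0.19 and 0.078.

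Markers of cell types and gut regions moved in the same comparison. The enterocyte genes *Alpi*, *Sis* and *Slc5a1* fell by 1.53, 1.37 and 0.86 log2 units (limma adjusted p = 0.00178, 0.000699 and 0.00106). *Anpep*, *Krt20* and *Apoa1*, of the same list, rose by 1.08, 0.63 and 0.61 (limma adjusted p = 0.00426, 0.00493 and 0.00548). Of 11 enterocyte markers tested, 4 rose and 5 fell, beside 24.5% and 16.7% of all genes. The summed level of the enterocyte list was 1631 to 1677 FPKM in EtOH DMSO and 1375 to 1445 in 4-OHT DMSO. DMT1, duodenal cytochrome b and ferroportin are known to be highest in the duodenum. Of the proximal markers, *Pdx1* fell by 1.21 log2 units (0.0164) and *Gata4* by 0.52 (0.0105), while the ileal markers *Slc10a2* and *Fabp6* rose by 1.56 (0.00253) and 1.41 (0.0215).

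The other lineages also differed. All 6 Paneth, all 6 goblet and all 7 enteroendocrine markers were higher in 4-OHT DMSO, with list medians of 1.26, 1.00 and 1.03 log2 units, and 3 of 5 stem cell markers were lower. The summed Paneth level was 7399 to 8169 FPKM in EtOH DMSO and 19155 to 19688 in 4-OHT DMSO. *Cd14* and *Cd68* of the immune list rose, with a summed list level of 4.39 to 6.41 against 24.7 to 26.5 FPKM, while the other 4 genes of that list stayed under 1 FPKM in every library. All tuft, fibroblast and erythroid markers were under 1 FPKM throughout. In bulk RNA, fewer cells of a type and less RNA per cell cannot be told apart, and the part of these shifts in the lower level of the iron genes was not tested.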

How the data were processed

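RNA-seq libraries (7, in 4 groups) were grouped by their titles; 2 Atf3 ChIP samples were not analysed here. The deposited values are FPKM per gene, which the authors made from paired reads; the submitters' processing notes name HISAT2 2.1.0, StringTie 1.3.3b and mm10. The files give no read counts, so the absolute depth is unknown; low values gave relative depths of 0.853 to 1.03. The labels do not say whether replicates were separate cultures, so p-values measure the spread between these samples, which may be technical. A table with 2 repeat columns was read through its own column only.

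Symbols were matched to Ensembl identifiers for 54723 of 54838 genes. Values were analysed as log2(FPKM + 1), which understates changes of low genes, with limma 3.58.1 in R 4.3.3 (mean-variance trend, 1 mean per group over all 7 libraries, 3 residual degrees of freedom) over the 12702 genes that reached 1 FPKM in 2 or more libraries. Benjamini-Hochberg adjustment covered all of them, with a threshold of 0.05, two-sided. The code was checked on 20 simulated sets with 200 changed genes among 12702 and a spread drawn from the fitted model itself. There the fit recovered 58.5% of genes set at 1 log2 unit and 91.5% of those set at 2, and 4.55% of calls were false. The real comparison called 41.2% of all genes and its spread need not follow the model, so these rates do not carry over to it. Named genes were the 10 members, up to 3 rises and 3 falls of each list that passed the test the same way in every pairing, the 5 genes most like *S100g*, *Mettl3*, and genes at or near 0; *Cyp3a11*, *Abcb1a* and *Heph* were chosen after their values were seen, and 1 gene that the rule names is not reported here. The members and lists were chosen with earlier results of these data known. Alternatives were limma without the trend, other pseudocounts, filters and scalings, a fit to the 4 DMSO libraries only, a replicate block, and leaving out each library of the groups with 2. Promoter windows came from RefSeq tables on GRCm38.p6.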

Additional observations from a re-analysis of the deposited data

Results flagged for a closer look

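No member of the set moved in opposite directions in the EtOH and 4-OHT arms without overlap. Among the other genes named above, 5 did, and the differences between the arms were not tested. Genes of the stem, Paneth, goblet and enteroendocrine lists were not screened for this. The share of all genes that moved in opposite directions was not counted, so nothing is read from the number. With Nec-1 in EtOH organoids, 10.5% of all genes lay above and 39.1% below without overlap. In 4-OHT organoids, with 1 Nec-1 library, these shares were 25.5% and 49.3%. With Nec-1, *Cldn15* differed by -0.088 log2 units in EtOH organoids and 0.12 in 4-OHT organoids, *Epas1* by -0.20 and 0.25, and *Gata4* by -0.28 and 0.16. *Krt20* differed by 0.41 and -0.17. *Fabp6*, the ileal bile acid-binding protein, had the widest gap: 1.46 log2 units with Nec-1 in EtOH organoids and -1.01 in 4-OHT organoids. The same libraries give 4-OHT minus EtOH differences for *Fabp6* of 1.41 under DMSO and -1.06 under Nec-1. The 4-OHT Nec-1 group is 1 library in each case.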

How the results depend on the processing

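The call for *Vdr* and *Slc11a2* held under all 15 alternatives and *Tfrc* passed under none. Centring on the median gene shifted every 4-OHT minus EtOH log2 difference under DMSO by about -0.16, and turned the split of all genes from 3117 higher and 2120 lower to 2213 higher and 3187 lower; it lost *Atp2b1* (adjusted p = 0.0562) and gained *S100g* (0.0360). Without the filter on low values, 3 members were called lower. Leaving out single libraries, which assumes that a lone library varies like the other groups, gave 2 to 7 members called and 2 to 6 lower, 3 to 6 members above DMSO with Nec-1 in EtOH organoids, and 1.66 to 2.58 log2 units for *S100g* with Nec-1 in 4-OHT organoids. Replicate numbers showed no shared shift between groups (correlations of deviations -0.040, 0.0065 and -0.012). This cannot show whether samples with the same number came from a shared culture. With a replicate block, 4697 genes and the same 6 members were called. Other results that crossed the threshold were *Slc40a1*, *Cybrd1* and *Fth1*, which kept their direction in all 15 and passed in 12, 14 and 13. *Atp2b1* and *S100g* also kept their direction and passed in 11 and 5. Upper quartile scaling lost *Atp2b1* (limma adjusted p = 0.0721) and gained *S100g* (0.0287), as centring did. Requiring 1 FPKM in every library also gained *S100g* (limma adjusted p = 0.0475). Centring moved the Nec-1 differences by 0.10 in EtOH and 0.11 in 4-OHT organoids.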
